A study of Mus musculus with 32 samples.

Results

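CD4+ T cells activated by antigen for 48 h in medium with leucine at 1% of its usual concentration were compared with CD4+ T cells activated in the same way in medium with lysine at 1%. Both amino acids are essential for the mouse, so the comparison asks whether the identity of the missing amino acid matters for a helper T cell that has just met its antigen. The comparison holds 6 arrays, 3 for each medium, out of 32 arrays in the series and 23 at this time point, and it runs across 22180 genes. Groups were taken from the sample titles. All values are log2 expression levels, so a difference of 1 is a doubling, and replicates are called by the number in their title.

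The cells came from axial and cervical lymph nodes of DO11.10 mice on the Balb/c background, which carry a transgenic T cell receptor for a peptide of ovalbumin (OVA). They were cultured on peritoneal macrophages elicited with thioglycollate, which presented the peptide, and were then sorted as viable CD4+ single cells before RNA was extracted. The medium was a labelling formulation of RPMI that lacks arginine, leucine and lysine, to which these were added back. In one group of arrays leucine alone was lowered with OVA peptide present, and in the other lysine alone. Further groups of 3 arrays are used beside them: low leucine without peptide, low lysine without peptide, low arginine with peptide, and full medium with peptide. All of these cells shared the receptor, the macrophages and the time point, and nothing in the labels says whether replicates came from separate cultures or animals, so p-values measure only the spread between these samples. The estimate of that spread also drew on the remaining groups at this time point. These were peptide with the cytokines IL-4 and IL-10, and low arginine without peptide.

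Leucine and lysine are read by partly different systems. Leucine is bound by the sestrins, and the Rag GTPases then recruit the growth kinase complex mTORC1 to the lysosome. Loss of any essential amino acid leaves its tRNA uncharged, which activates the kinase GCN2 (gene Eif2ak4) and the translation of the transcription factor ATF4, whose targets include amino acid transporters and synthetases. In helper T cells, mTORC1 and the amount of interleukin-2 signalling both bear on how far a cell divides and which cytokine programme it takes up.

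The arrays held the defining transcripts of CD4+ T cells, and the low lysine arrays differed more among themselves than the low leucine arrays did. Cd3e lay at 11.82, 11.60 and 11.77 in low leucine and at 11.77, 11.22 and 11.51 in low lysine, and Cd4 between 9.85 and 10.08 in all 6 arrays. Pairs of low leucine arrays correlated at 0.987 to 0.990 across genes, pairs of low lysine arrays at 0.973 to 0.981, and pairs from different media at 0.967 to 0.987. For 10667 of the 22180 genes, low lysine replicate 3 was the low lysine array nearest to the low leucine mean. The mean level of 30 genes of G2 phase and mitosis was 8.24, 8.50 and 8.61 in low leucine, and 6.04, 7.07 and 8.15 in low lysine replicates 1, 2 and 3. Every result below therefore rests on low lysine arrays that were far apart for dividing-cell genes. Unless said otherwise, standard errors, intervals and p-values use 1 spread per gene shared by all 8 groups at this time point. The low lysine arrays spread more than that of low leucine. The median SD was 0.146 in low leucine and 0.189 in low lysine over all genes, and 0.224 and 1.166 over the mitosis genes.

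In all, 416 genes differed between the media at an adjusted p below 0.05 in limma (1.88% of those tested), and most of them were higher in low leucine. There were 352 genes higher in low leucine (1.59%) and 64 lower (0.289%), with 103 and 13 of them differing by more than 2-fold. The excess had the same direction but another size under other scalings: 84.6% of the called genes were higher in low leucine as deposited, 92.4% with each array centred on its median, and 64.7% after quantile normalization. The median difference over all genes was -0.02. Of all genes, 11.3% had 3 low leucine arrays above 3 low lysine arrays and 9.6% had them below. Among the called genes, 347 of the 352 and 61 of the 64 had groups that did not overlap. Leaving out 1 array moved the count to 180, 177 and 100 genes without low leucine replicates 1, 2 and 3, to 84 and 97 without low lysine replicates 1 and 2, and to 1414 without low lysine replicate 3. A core of 60 genes, 48 higher and 12 lower, kept the call in all 6 of these fits. Il21, Cd80, Nkg7, Fosl2, Gja1, Klk1, Lockd, Tnfrsf26, Adh1, Tbc1d7, Nupr1, Gbp11 and Irgm2 are among the 48, and Il6st, Gpr183, Tnfsf11, Klf3, St8sia6, Insig1, Mmp12, Stra6 and Ifit1bl1 among the 12. Most other called genes named below lost the call without low lysine replicate 1 or 2 or without low leucine replicate 3. None of the 416 genes changed sign, but leaving out 1 array cannot change the sign where the groups do not overlap. Of 53 called genes under the naming rule, 36 lost the call in a fit of the 6 arrays alone and 16 after quantile normalization. The 6 arrays alone gave 50 called genes in limma without a block. With runs of the submitters' own numbers as a block they gave 0 (3166 at an unadjusted p below 0.05). Within the core, the fit of 6 arrays took Adh1, Insig1, Tbc1d7, Klf3, Stra6 and Mmp12 to adjusted p between 0.051 and 0.098, and quantile normalization took Nupr1 to 0.081.

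**Figure D1:**
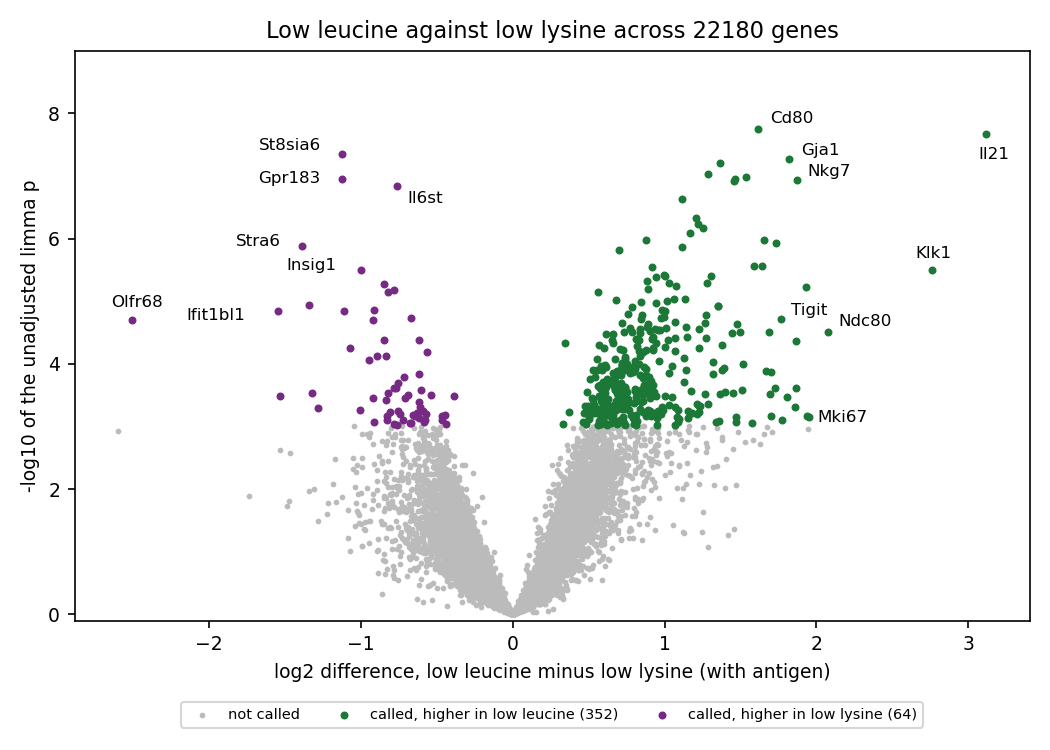
Difference of each of 22180 genes between low leucine and low lysine with antigen (x axis, log2, positive where higher in low leucine) against -log10 of the unadjusted limma p (y axis). Green points are the 352 genes called higher in low leucine and purple points the 64 called lower, with Il21 farthest to the right at 3.12 and Olfr68 the lowest of the called genes at -2.51.

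The largest difference of all belonged to Il21, the cytokine through which helper T cells act on germinal centre B cells and on CD8 T cells. Il21 lay at 9.79, 9.40 and 9.68 in low leucine and at 6.05, 5.86 and 7.61 in low lysine. All 3 low leucine arrays were above all low lysine arrays, of which replicate 3 was the highest. The mean was 9.63 ± 0.20 (SD, n = 3) against 6.51 ± 0.96 (SD, n = 3), an 8.70-fold difference. The log2 difference was 3.12 (95% interval 2.35 to 3.89, adjusted p = 0.00024, limma). That interval rests on the spread shared by all groups, and a limma fit of the 6 arrays alone gave an adjusted p of 0.033. In full medium Il21 lay at 7.01, 8.21 and 6.59, so its low leucine level was above the range of full medium.

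Among helper cytokines and chemokines, Tnfsf11 was the only other gene to pass. Of 27 measured, 1 rose (Il21) and 1 fell (Tnfsf11), which is 7.41% against 1.88% of all genes. The median difference of the 27 was 0.03, and 8 had an unadjusted p below 0.05. Tnfsf11, which encodes the TNF-family ligand RANKL, lay at 7.06, 7.10 and 6.83 in low leucine and at 7.92, 8.00 and 7.81 in low lysine, with the groups apart and a difference of -0.92 ± 0.17 (SE, adjusted p = 0.0056). Il2, the growth factor of activated T cells, lay at 9.92, 9.85 and 10.12 in low leucine and at 10.55, 10.51 and 11.02 in low lysine. Its groups did not overlap, but the difference of -0.73 ± 0.29 (SE) did not pass (adjusted p = 0.20). Both media gave Il2 means above that of full medium, which was 8.94. Ifng lay between 5.72 and 6.04 in low leucine and between 4.63 and 6.77 in low lysine, so the groups overlapped.

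Il6st and Gpr183, receptors that also shape helper cell fate and position, were lower in low leucine than in low lysine. Their full medium means, 9.33 and 8.41, were nearer to low leucine than to low lysine. Those of low arginine were 10.19 and 8.12. Il6st, the shared receptor chain gp130, lay at 9.22, 9.41 and 9.28 in low leucine and at 10.08, 10.09 and 10.02 in low lysine. Every low lysine array was above every low leucine array, with a spread of 0.038 (SD, n = 3) in low lysine and a difference of -0.76 ± 0.10 (SE, adjusted p = 0.00027). Gpr183, the oxysterol receptor EBI2 that positions lymphocytes in follicles, lay at 8.14, 8.04 and 7.96 in low leucine and at 8.95, 9.39 and 9.18 in low lysine, again with no overlap and a 2.18-fold difference (adjusted p = 0.00024). In a set of 16 genes of follicular helper cells that was drawn up after values were seen, 2 rose (Il21 and Tigit) and 2 fell (Il6st and Gpr183). Of the 16 differences 7 were above 0, with a median of -0.07. Bcl6, the lineage factor of these cells, had a difference of 0.43 ± 0.17 (SE, adjusted p = 0.21), and Cxcr5, their homing receptor, of 0.23 ± 0.22 (SE, adjusted p = 0.64).

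Several genes of the type 1 helper and cytotoxic programme were higher in low leucine. Tbx21, which encodes the lineage factor T-bet, lay at 8.53, 8.55 and 8.74 in low leucine and at 6.82, 6.71 and 8.14 in low lysine. Il12rb2, the inducible chain of the interleukin-12 receptor, lay at 10.02, 10.24 and 10.48 in low leucine and at 7.62, 7.75 and 9.77 in low lysine. For both genes the groups were apart, and low lysine replicate 3 lay close below the low leucine arrays. The differences were 1.38 ± 0.28 for Tbx21 and 1.87 ± 0.43 for Il12rb2 (SE, adjusted p = 0.010 and 0.026). Both lost the call without low leucine replicate 3 or without low lysine replicates 1 or 2, Il12rb2 also without low leucine replicates 1 or 2, with adjusted p up to 0.092 for Tbx21 and 0.16 for Il12rb2. Nkg7, a protein of cytotoxic granules, lay at 9.45, 8.49 and 8.74 against 7.08, 6.51 and 7.46, a 3.67-fold difference that passed with any single array left out (adjusted p = 0.00024).

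Of 16 such genes, listed after values were seen, 6 rose and 1 fell (1.59% and 0.289% of all genes did). In all, 11 of the 16 differences were above 0, with a median of 0.29. The other genes that rose were Il12rb1 (0.81), Runx3 (0.88), a partner of T-bet, and Cst7 (1.14), a cystatin of cytotoxic granules. The gene that fell was Eomes, the T-box relative of Tbx21, at 5.38, 5.79 and 5.45 in low leucine and 6.39, 6.17 and 6.74 in low lysine (difference -0.90 ± 0.18, SE, adjusted p = 0.013, and up to 0.075 with 1 array left out). Gzmb, granzyme B, had a difference of 1.63 ± 0.46 (SE) that did not pass (adjusted p = 0.070). Stat4, Cxcr3 and Il18rap had differences of -0.04, 0.04 and -0.02. The cytotoxic gene Prf1 went the other way without passing (-0.515 ± 0.205, SE, adjusted p = 0.21). Il18r1 and Gzma had -0.178 and 0.225 and did not pass.

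**Figure D2:**
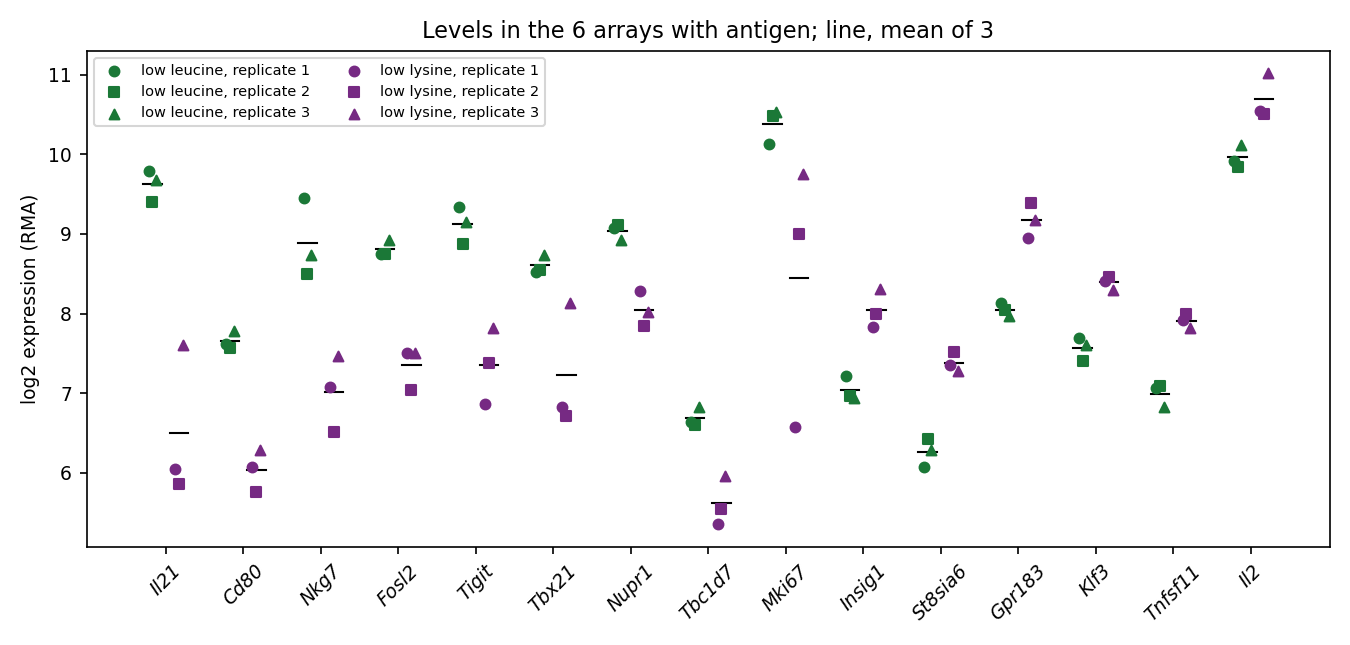
Log2 expression (y axis) of 15 genes (x axis) in the 3 low leucine arrays (green) and the 3 low lysine arrays (purple) with antigen, with symbols for replicates 1 to 3 and a line at each mean. Cd80 and Nupr1 show tight groups that do not overlap, while Mki67 runs from 6.58 to 9.76 in low lysine.

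Among surface molecules of co-stimulation and inhibition, Cd80 and Tigit were higher in low leucine. Cd80, the B7 ligand of CD28 and CTLA-4 that activated T cells also express, lay at 7.62, 7.56 and 7.78 in low leucine and at 6.07, 5.75 and 6.29 in low lysine. No array overlapped, and the 3.06-fold difference had an interval of 1.22 to 2.01 on the log2 scale (95%, adjusted p = 0.00024). Of 12 genes of the B7 and CD28 family, listed after values were seen, Cd80 alone passed; Cd86, the other CD28 ligand, had a difference of -0.19 ± 0.16 (SE). Tigit, an inhibitory receptor, lay at 9.33, 8.87 and 9.15 against 6.86, 7.38 and 7.82, a 3.40-fold difference (adjusted p = 0.0066, and 0.058 without low lysine replicate 1). Of 19 inhibitory receptors and anergy genes, 2 rose, Tigit and the ubiquitin ligase Cblb (0.49 ± 0.12, SE), and none fell; their median was 0.08.

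Of 25 activation genes, 2 passed in limma (8%, against 1.88% of all genes). In all, 19 of the 25 differences were above 0, with a median of 0.24, and 9 had an unadjusted p below 0.05 (3620 of all 22180 genes did). Il2ra and Cd69, both induced by the T cell receptor, had differences of 0.06 ± 0.13 and 0.04 ± 0.13 (SE), and Myc of -0.14 ± 0.11. The 2 that passed both rose: Cd5, a receptor that follows the strength of T cell receptor signals (0.66), and the orphan nuclear receptor Nr4a2 (0.81). With 1 array left out their adjusted p reached 0.12 and 0.20, and that of Cblb 0.20. Among AP-1 transcription factors Fosl2 stood out, at 8.75, 8.75 and 8.93 in low leucine and 7.51, 7.04 and 7.51 in low lysine, and it alone of 9 measured members passed (1.46 ± 0.19, SE, adjusted p = 0.00024). Tnfrsf26, a member of the TNF receptor family, lay at 8.78, 8.73 and 8.88 against 7.41, 7.14 and 7.44. Low lysine held it below its full medium mean of 8.78, whereas the low leucine mean was 8.80.

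Klf3, a Krüppel-like transcriptional repressor, was the member of 17 naive and quiescent T cell genes that fell (-0.82 ± 0.14, SE, adjusted p = 0.0037). It lay at 7.70, 7.40 and 7.61 in low leucine and at 8.41, 8.46 and 8.30 in low lysine, with no overlap. St8sia6, a sialyltransferase, lay at 6.07, 6.42 and 6.29 against 7.35, 7.52 and 7.28, a 2.18-fold lower level in low leucine. Tespa1, a component of T cell receptor signalling (-0.95), and Rgcc, a regulator of the cell cycle (-0.92), also fell, with adjusted p up to 0.080 and 0.052 with 1 array left out.

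Of the 35 gene lists examined, that of G2 phase and mitosis held the most called genes, and the low lysine arrays spread widely over it. Of 30 measured genes of G2 phase and mitosis, 15 were called higher in low leucine than in low lysine and none lower. All 30 differences were above 0. In 18 the groups did not overlap and were higher in low leucine, as in 11.3% of all genes. The median difference was 1.34 against -0.02 over all genes. Their mean level was 8.90, 9.02 and 8.93 in full medium and 8.65 to 8.85 in low arginine. Every low leucine array lay below these levels, and every low lysine array lower still. Ndc80, a kinetochore protein that holds microtubules, lay at 9.59, 9.74 and 9.76 in low leucine and at 6.47, 7.40 and 8.98 in low lysine. Kif11, the spindle motor Eg5, lay at 9.03, 9.52 and 9.53 against 5.67, 7.82 and 8.73, and Mki67, the proliferation antigen Ki-67, at 10.13, 10.49 and 10.53 against 6.58, 8.99 and 9.76. In each gene the groups were apart, low lysine replicate 1 was far below the rest and replicate 3 lay within 1 log2 unit of the lowest low leucine array.

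The differences were 2.07 ± 0.40 for Ndc80, 1.95 ± 0.50 for Kif11 and 1.94 ± 0.49 for Mki67 (SE, adjusted p = 0.0080, 0.042 and 0.042). Plk1, a mitotic kinase (1.39), Cdc20, the activator of the anaphase-promoting complex (1.32), Birc5, the inhibitor survivin (1.81), and Cenpa, the centromeric histone (0.87), also rose. Cdk1, the kinase that drives entry into mitosis, had a difference of 1.58 ± 0.44 (SE) that did not pass (adjusted p = 0.065). Without low leucine replicates 1, 2 and 3 the count of called genes among the 30 was 4, 2 and 1, without low lysine replicates 1, 2 and 3 it was 0 (21 at an unadjusted p below 0.05), 1 and 30. The median was 0.78 to 1.88 over these fits. In a limma fit of the 6 arrays alone, none of the 30 passed although all 30 had an unadjusted p below 0.05; after quantile normalization 6 did. Lower RNA for these genes can come from fewer dividing cells or from less RNA per cell, which bulk arrays cannot tell apart.

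Genes of the G1/S transition and DNA replication had smaller differences in the same direction. Of 33 measured, 2 rose and none fell, and all 33 differences were above 0, with a median of 0.53. In 12 the groups were apart and higher in low leucine, as in 11.3% of all genes. The 2 were Uhrf1, which maintains DNA methylation (0.92 ± 0.21, SE, adjusted p = 0.025), and Slbp, the histone mRNA stem-loop binding protein (0.57 ± 0.15, SE, adjusted p = 0.047). Both lost the call without low lysine replicate 1 or without any of the low leucine replicates, and after quantile normalization no member passed (8 at an unadjusted p below 0.05). Pcna, the replication clamp, had a difference of 0.00 ± 0.12 and Rrm2, a subunit of ribonucleotide reductase, of 1.38 (adjusted p = 0.062). E2f8, an atypical E2F repressor expressed in S phase, lay at 8.58, 8.61 and 8.90 in low leucine and at 5.50, 7.15 and 7.84 in low lysine (difference 1.87 ± 0.37, SE, adjusted p = 0.0094, and up to 0.061 with 1 array left out).

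**Figure D3:**
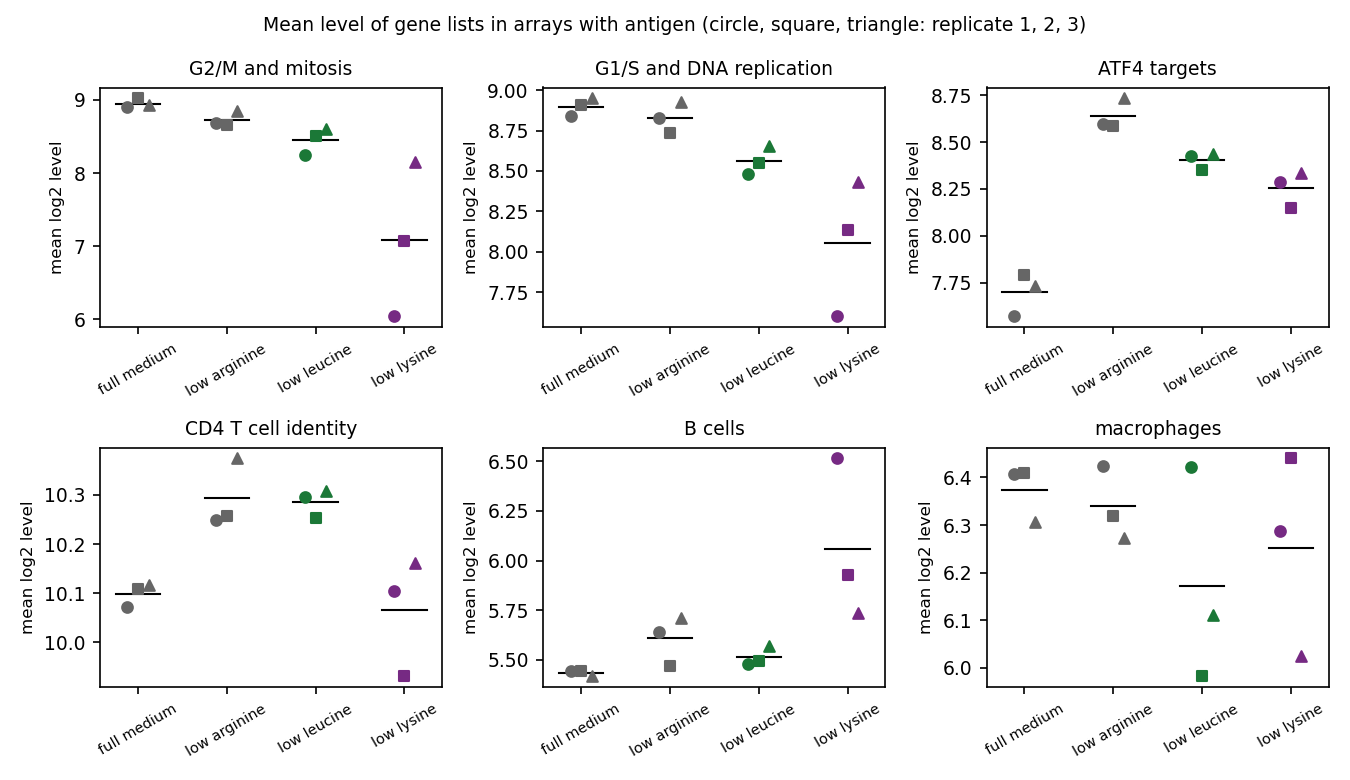
Mean log2 level (y axis) of 6 gene lists in the 12 arrays with antigen, by medium (x axis), with circle, square and triangle for replicates 1, 2 and 3 and a line at the mean. The G2/M and mitosis panel runs from 6.04 to 8.15 in low lysine and from 8.24 to 8.61 in low leucine, and the B cell panel has low lysine replicate 1 highest at 6.52.

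Because mitotic genes moved together, the promoters of 4 genes that rose with them were read for the letters of the cell cycle homology region, an element through which the DREAM complex holds such genes down in resting and G1 cells. The motif TTTGAA was searched on both strands after the differences were known. It stood in 17.9% of 32851 RefSeq windows from 250 bases before to 50 bases after a start, which is 20.2% of 27025 genes, and in 19 of the 24 mitosis genes of the list that had a window. Below are the 200 bases before the start, 5′ to 3′ on the gene's strand from RefSeq (GRCm38.p6), with the motif or its reverse complement TTCAAA in capitals.
Cdc20, chr4:118437344-118437543, - strand: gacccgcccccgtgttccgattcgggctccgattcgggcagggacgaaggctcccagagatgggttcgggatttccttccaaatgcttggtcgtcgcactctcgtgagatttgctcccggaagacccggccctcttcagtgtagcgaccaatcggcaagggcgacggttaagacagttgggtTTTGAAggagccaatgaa
Kif11, chr19:37376182-37376381, + strand: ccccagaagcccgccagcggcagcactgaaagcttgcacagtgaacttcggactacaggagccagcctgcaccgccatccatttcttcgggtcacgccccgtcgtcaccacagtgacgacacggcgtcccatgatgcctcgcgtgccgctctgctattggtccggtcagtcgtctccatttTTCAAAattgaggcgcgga
Mki67, chr7:135716380-135716579, - strand: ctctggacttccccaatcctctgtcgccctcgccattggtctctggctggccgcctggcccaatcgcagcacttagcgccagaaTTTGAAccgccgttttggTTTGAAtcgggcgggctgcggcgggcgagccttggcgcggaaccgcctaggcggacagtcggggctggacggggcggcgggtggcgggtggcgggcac
E2f8, chr7:48881597-48881796, - strand: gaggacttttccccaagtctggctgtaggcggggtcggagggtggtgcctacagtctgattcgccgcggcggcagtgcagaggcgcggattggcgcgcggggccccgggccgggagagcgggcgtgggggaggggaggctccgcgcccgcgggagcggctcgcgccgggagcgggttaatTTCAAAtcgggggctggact
In Cdc20, Kif11 and E2f8 the motif began 18, 19 and 20 bases before the start, and in Mki67 it stood at 116 and at 98 bases before. The letters alone are a description and do not show that the site is used.

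Many GTPases of the guanylate-binding and immunity-related families, most of them inducible by interferon, were higher in low leucine than in low lysine. Of 15 such genes, gathered by symbol after values were seen, 8 were called higher in low leucine (1.59% of all genes) and none lower. In all, 14 differences were above 0, and the median was 0.87. Igtp lay at 10.98, 11.13 and 11.07 in low leucine and at 9.82, 9.41 and 10.73 in low lysine, and Gbp5 at 8.33, 8.88 and 8.91 against 7.68, 7.51 and 8.17; in neither did the groups overlap, and with 1 array left out their adjusted p reached 0.099 and 0.095. Iigp1 differed by 1.67, Gbp11 by 1.35, Gbp8 by 1.12, Irgm2 by 1.06 and Gbp2b by 1.00. Means of Igtp were 10.95 in full medium and 11.02 in low arginine, next to 11.06 in low leucine and 9.99 in low lysine. Gbp11 had 7.17 and 7.27 there, above 6.10 in low leucine and 4.75 in low lysine. Irgm2 had 9.11 and 9.42, below 9.60 in low leucine and above 8.53 in low lysine. These GTPases share sequence, so probe sets may read related members. Of 26 genes in the interferon list, 2 rose (Igtp and Gbp5) and none fell, and the median was -0.01. Ifit1bl1, an interferon-induced family member outside that list, lay at 3.41, 4.01 and 3.82 in low leucine and at 5.54, 4.86 and 5.48 in low lysine, and fell by 1.54. Its full medium mean was 6.51, above both.

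ATF4 targets lay above their full medium level in both low media, and 2 of them were higher in low leucine than in low lysine. The mean of 32 ATF4 targets lay between 8.35 and 8.44 in low leucine and between 8.15 and 8.34 in low lysine, against 7.57 to 7.79 in full medium and 6.58 to 6.66 without antigen in the same low media. Of the 32 genes, 2 rose (Nupr1 and Ddit3) and none fell, with a median of 0.13. After quantile normalization the median was -0.03 and neither gene passed, with adjusted p of 0.081 for Nupr1 and 0.11 for Ddit3. Nupr1, a stress-induced chromatin protein, lay at 9.07, 9.11 and 8.92 in low leucine and at 8.29, 7.85 and 8.02 in low lysine, a 1.98-fold difference with no overlap (adjusted p = 0.0056). Ddit3, the stress factor CHOP, lay at 10.21, 10.41 and 10.27 against 9.67, 9.44 and 9.74 (0.68 ± 0.17, SE, adjusted p = 0.039, and up to 0.18 with 1 array left out). Asns, asparagine synthetase, lay between 9.97 and 10.29 in all 6 arrays, with a difference of 0.00 ± 0.22 (SE), and Trib3, the feedback inhibitor of ATF4, had 0.53 ± 0.22 (SE, adjusted p = 0.24).

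The core of the element bound by ATF4 with C/EBP proteins, TGATGNAA on either strand, stood in 3.97% of the promoter windows, or 4.51% of genes, and in 10 of 29 listed ATF4 targets with a window. Nupr1 held it as its reverse complement, 110 bases before the start, shown in capitals in the same kind of window; Ddit3 did not hold it in its window.
Nupr1, chr7:126625471-126625670, - strand: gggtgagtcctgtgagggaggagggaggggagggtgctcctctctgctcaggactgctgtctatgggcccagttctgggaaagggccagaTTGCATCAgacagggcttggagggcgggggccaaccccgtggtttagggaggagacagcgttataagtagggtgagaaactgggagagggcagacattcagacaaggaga

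Each list of genes that handle leucine, lysine or other amino acids held at most 1 called gene as deposited. Of 18 cytosolic aminoacyl-tRNA synthetases, 1 rose (5.56%, against 1.59% of all genes), and 6 had an unadjusted p below 0.05. The 1 was Wars, for tryptophan (0.60 ± 0.16, SE, adjusted p = 0.047, and up to 0.21 with 1 array left out). Lars, which charges the leucine tRNA, had a difference of 0.07 ± 0.16 and Kars, which charges the lysine tRNA, of 0.23 ± 0.13 (SE, adjusted p = 0.86 and 0.38). Of 19 genes listed as neutral amino acid transporters, 1 rose, Slc43a3 (0.81 ± 0.19, SE, adjusted p = 0.027, and up to 0.16 with 1 array left out), and none fell. Slc43a3 itself carries purine bases rather than amino acids. Slc7a5, the light chain of the main leucine carrier, lay between 10.57 and 10.96 in all 6 arrays, and its partner Slc3a2 differed by 0.23 ± 0.13 (SE). None of 10 cationic amino acid transporters passed in limma (1 at an unadjusted p below 0.05), among them the lysine and arginine carriers Slc7a1 (0.06 ± 0.14) and Slc7a3 (-0.13 ± 0.16). None of 17 genes of branched-chain amino acid breakdown and none of 11 of lysine breakdown passed either (3 and 0 at an unadjusted p below 0.05). Of the 17, 5 had groups apart and higher in low leucine (11.3% of all genes did) and 0 lower (9.6%), with Acad8 the largest at 0.82. In a fit of genes with a mean level of at least 5, 2 of the 17 passed. Bcat1, the cytosolic branched-chain transaminase, had 0.32 ± 0.16 (SE, adjusted p = 0.34) and Aass, the first enzyme of lysine breakdown, -0.09 ± 0.18 (SE, adjusted p = 0.84).

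Of 40 genes of amino acid sensing upstream of mTORC1, 2 rose and none fell, with a median of 0.14. Tbc1d7, a subunit of the TSC complex that restrains mTORC1, lay at 6.64, 6.60 and 6.83 in low leucine and at 5.36, 5.55 and 5.96 in low lysine, with no overlap (1.07 ± 0.18, SE, adjusted p = 0.0034). Sesn3, a sestrin, differed by 0.55 ± 0.14 (SE, adjusted p = 0.039, and up to 0.18 with 1 array left out), and its relatives had 0.23 ± 0.25 (Sesn2) and -0.37 ± 0.15 (Sesn1), with adjusted p = 0.69 and 0.22. Eif2ak4, which encodes GCN2, had -0.01 ± 0.18 (SE). Of 22 p53 targets, 3 rose, Gtse1 (1.69), Ckap2 (1.23) and Trp53inp1 (0.66), and none fell. Gtse1 and Ckap2 act on the mitotic spindle, and Ckap2 is also a member of the mitosis list; Cdkn1a, the inhibitor p21, had 1.01 (adjusted p = 0.066). With 1 array left out the adjusted p of the 3 reached 0.075, 0.21 and 0.078.

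Among sterol and lipid genes Insig1 alone passed. Insig1, which retains the sterol sensor SCAP in the endoplasmic reticulum and is itself a target of SREBP, lay at 7.21, 6.97 and 6.94 in low leucine and at 7.83, 7.99 and 8.30 in low lysine. The groups were apart, and the 2.00-fold lower level in low leucine (log2 interval -1.34 to -0.66, adjusted p = 0.0025) kept its call with any single array left out but not in a fit of the 6 arrays alone (adjusted p = 0.051). Full medium lay above both, at 9.67, 9.70 and 9.90. Of 19 cholesterol genes it was the 1 that fell, and none rose. After quantile normalization Hmgcs1 passed as well (-0.64, adjusted p = 0.026). As deposited, Hmgcs1, the synthase at the head of the pathway, had a difference of -0.47 ± 0.16 (SE, adjusted p = 0.13) with groups apart, and Fdps of 0.24 ± 0.22. None of 14 fatty acid genes passed (2 at an unadjusted p below 0.05).

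Other genes named for the size or antigen dependence of their difference had varied functions. Adh1, an alcohol dehydrogenase that can oxidise retinol, lay at 8.01, 8.26 and 7.84 in low leucine and at 6.70, 6.56 and 7.22 in low lysine (1.21 ± 0.17, SE, adjusted p = 0.00074). Stra6, the membrane receptor of retinol-binding protein, lay at 7.81, 7.20 and 7.30 against 9.17, 9.02 and 8.29 (-1.39 ± 0.21, SE, adjusted p = 0.0014). Neither had overlapping groups. Gja1, the gap junction protein connexin 43, lay at 7.91, 7.36 and 7.33 against 5.33, 5.54 and 6.27, a 3.52-fold difference, and Klk1, a tissue kallikrein, at 7.49, 5.37 and 6.50 against 3.30, 4.15 and 3.62. Klk1 rose by 2.76 with a spread of 1.06 in low leucine (SD, n = 3). Lockd, a long non-coding RNA next to Cdkn1b, differed by 1.93.

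No gene passed in limma among 32 cytosolic ribosomal proteins (median difference 0.19, with 12 at an unadjusted p below 0.05), 29 ribosome biogenesis genes (0.09, with 4), 19 respiratory chain and ATP synthase genes (0.27, with 8) or 18 glycolysis genes (0.23, with 3). By the same measures, 17 unfolded protein response genes had a median of 0.17 with 1, 23 autophagy genes 0.17 with 7, and 13 regulatory T cell genes -0.08 with 4, and none passed.

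Transcripts of other cell types were present and differed between single arrays. All 12 measured B cell markers had differences below 0, with a median of -0.51, and 1 passed, the low-affinity IgE receptor Fcer2a. Their mean level was 5.48, 5.49 and 5.57 in low leucine and 6.52, 5.93 and 5.73 in low lysine, against 5.42 to 5.71 in full medium and low arginine. Cd79a, a signalling chain of the B cell receptor, lay at 5.96, 5.98 and 6.50 in low leucine and at 7.90, 6.73 and 6.31 in low lysine. B cell transcripts were thus highest in low lysine replicate 1, the array with the lowest mitosis level, and their part in the results was not tested. Without that array no B cell marker passed (2 at an unadjusted p below 0.05), Fcer2a had an adjusted p of 0.052, and the median was -0.30; without low lysine replicate 3, 6 passed.

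None of 24 macrophage markers passed (4 at an unadjusted p below 0.05). Their mean was 6.42, 5.98 and 6.11 in low leucine and 6.29, 6.44 and 6.03 in low lysine, and Lyz2, a lysozyme of macrophages, lay between 9.07 and 10.30. Mmp12, the macrophage elastase, fell by 1.34, at 7.62, 6.76 and 7.13 in low leucine and 8.69, 8.91 and 7.94 in low lysine, and Saa3, an acute phase protein that macrophages make, rose by 1.86. Lpl, lipoprotein lipase, fell by 1.29 with overlapping groups (5.30 to 6.44 against 6.34 to 8.20). With 1 array left out, adjusted p reached 0.20 for Saa3 and 0.23 for Lpl. The part of macrophage RNA in Mmp12, Saa3 and Lpl was not tested. Of 12 CD8 T cell and NK cell markers, 2 rose (Nkg7 and Tbx21) and 1 fell (Eomes), and these 3 are also genes of activated helper cells; Cd8a had a difference of -0.49 (adjusted p = 0.18).

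Of the 64 genes that fell, 10 were odorant receptor genes. Of 1088 such genes with a value, those 10 fell and none rose, while 0.289% and 1.59% of all genes did. Their median difference was -0.17, and the median of their levels over the 6 arrays was 3.94. Medians over all genes were 5.67, 5.58 and 5.59 in the low leucine arrays and 5.71, 5.71 and 5.62 in low lysine. With each array centred on its median, 35 genes were called lower in place of 64. The part of array-wide shifts in these genes was not tested. Olfr68 lay at 5.73, 5.79 and 5.13 in low leucine and at 8.19, 8.72 and 7.27 in low lysine, and Olfr43 at 5.45, 5.57 and 5.11 against 7.10, 7.39 and 5.60. With 1 array left out their adjusted p reached 0.055 and 0.18. They are named as the annotation gives them, and such families share sequence between members.

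Without antigen the same media gave 2 called genes (0.00902% of those tested), with 1609 genes at an unadjusted p below 0.05. Both were higher in low leucine: Socs3, an inhibitor of cytokine signalling that binds gp130 (1.40 ± 0.20, SE, adjusted p = 0.0098), and Skap2, an adaptor of adhesion signalling (1.01 ± 0.15, SE, adjusted p = 0.011). Both lost the call without low leucine replicate 3 (adjusted p = 0.10 for each), low lysine replicate 1 (0.10 for each) or low lysine replicate 2 (0.18 for Socs3 and 0.20 for Skap2), all without antigen, and Skap2 also without low leucine replicate 2 (0.068). Without low lysine replicate 3 the count was 14. Skap2 was also higher in low leucine with antigen (0.66, adjusted p = 0.026), and Socs3 had 0.51 there (adjusted p = 0.19). Mitosis genes had a median difference of 0.07 without antigen, and their mean level was 5.52 to 5.76 in those 6 arrays.

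The difference between the media depended on antigen for 16 genes by the interaction contrast (0.0721%; 1947 at an unadjusted p below 0.05). For Cd80 the leucine minus lysine difference was 1.61 with antigen and -0.51 without, a change of 2.13 ± 0.27 (SE, adjusted p = 0.0013). For Il21 it was 3.12 and 0.12, and for Fosl2 1.46 and -0.19. In the other direction, Gpr183 had -1.13 with antigen and 0.20 without, and Il6st -0.76 and 0.18. Without antigen Gpr183 lay between 8.76 and 9.47 and Il6st between 9.73 and 10.18, and with antigen the low leucine arrays lay below those levels. The full medium means with antigen, 8.41 for Gpr183 and 9.33 for Il6st, lay below them too. None of the 30 mitosis genes is among the 16.

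**Figure D4:**
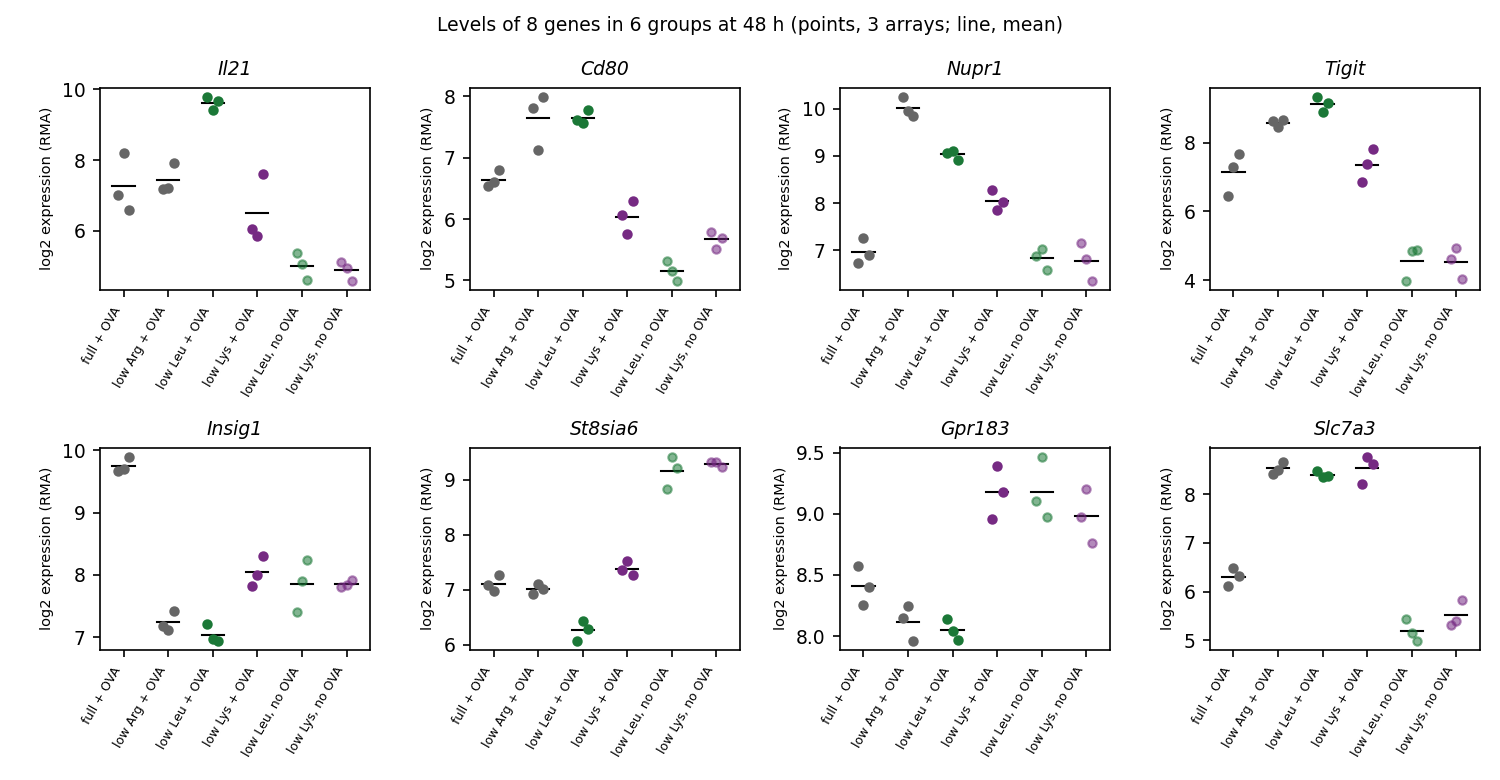
Log2 expression (y axes, each with its own range) of 8 genes in 6 groups of 3 arrays at 48 h (x axis), with a line at each mean. Il21 lies at 9.40 to 9.79 in low leucine with antigen and at or below 8.21 in the other groups, Insig1 is highest in full medium at 9.67 to 9.90, and Slc7a3 lies between 8.20 and 8.78 in both low media with antigen.

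Set beside the other media with antigen, the called genes did not all depart from full medium in the same group. These comparisons share arrays with the one above. The genes were picked where these low leucine and low lysine arrays lay apart, which by itself favours the directions counted here. The counts therefore lend the calls no support, and shares over all genes are no fair baseline for them. The full medium arrays come from another stretch of the submitters' numbering than the low amino acid arrays, so numbering and medium cannot be told apart there. Of the 352 genes higher in low leucine, the full medium mean lay between the low media for 222, above both for 97 and below both for 33. Against full medium, 185 of the 352 fell in low lysine (6.24% of all genes did) and 4 rose (2.49%), while in low leucine 69 rose (1.15%) and 4 fell (1.56%). Of the 64 genes lower in low leucine, 29 rose in low lysine against full medium and 4 fell, while in low leucine 15 fell and 2 rose.

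Low arginine gave a further reference at 1% of an amino acid. Of the 352 genes, 177 were also called higher in low arginine than in low lysine (2.65% of all genes) and 1 lower (0.577%). Against low leucine, 3 were called higher in low arginine (0.234%) and 34 lower (0.478%). Both excesses were favoured in advance, since the 352 genes were picked on these same low lysine and low leucine arrays. Cd80 had a mean of 7.64 in low arginine, next to 7.65 in low leucine and 6.04 in low lysine. Il21 had 7.44 in low arginine, and Gja1 6.28 against 7.53 in low leucine. Nupr1 was highest in low arginine at 10.02, then 9.03 in low leucine, 8.05 in low lysine and 6.96 in full medium. St8sia6 had 7.01 in low arginine and 7.11 in full medium, with low leucine (6.26) below and low lysine (7.38) above.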

How the data were processed

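The values are log2 expression per probe set on MoGene-2_0-st arrays, which the authors computed with the RMA method of Affymetrix Expression Console 1.1 from 100 ng of RNA per array, per the labels and the submitters' processing notes. Which arrays were normalized together is not given in the sources used here. Of 41345 probe sets, 23521 named 1 gene in the platform annotation, 1814 several and 16010 none, which left 22180 genes, each represented by its probe set with the highest mean over 23 arrays. A linear model of group means was fitted by limma 3.58.1 (R 4.3.3; lmFit and trended eBayes) to all 23 arrays in 8 groups, which leaves 15 residual degrees of freedom, adjusted by Benjamini-Hochberg over all genes and called at an adjusted p below 0.05, two-sided. The script was tested on simulated data. The number of arrays limits the precision. With 3 against 3 arrays an exact permutation test cannot go below p = 0.1, so none was used.

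Named genes were, among called genes with non-overlapping groups, the top 12 risers and top 12 fallers by size, up to 4 called members of each of 35 gene lists, 44 fixed genes and up to 6 genes of the interaction; other names, and the family and helper-type sets so described, were chosen after values were seen. The members and lists were chosen with earlier results of these data known. Of 776 listed genes, 704 were measured. The lists not named in the report gave no call (median difference and number at an unadjusted p below 0.05 in brackets): serine, glycine and one-carbon enzymes (15 genes; 0.10, 2), hypoxia (18; 0.22, 4), histones (13; 0.41, 5), alternatively activated macrophages (17; -0.10, 4), dendritic cells (12; -0.12, 3) and granulocytes and mast cells (18; -0.17, 1); of 20 mesothelial and stromal genes Lpl fell, and of 13 CD4 T cell identity genes Cd5 rose. Other scalings, filters, probe set choices, fits and arrays left out were tried.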

Additional observations from a re-analysis of the deposited data

Results flagged for a closer look

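The difference between low leucine and low lysine itself differed with and without antigen for 16 genes, by limma's interaction contrast. For the 6 with the smallest p, the log2 difference with antigen minus that without was 2.13 for Cd80, -0.94 for Il6st, -1.33 for Gpr183, 1.67 for Tnfrsf26, 1.65 for Fosl2 and 1.40 for Adh1. The other 10 were Il21 (3.00), Mmp12 (-1.92), Tnfsf11 (-1.32), Rgs16 (1.37), Zfp189 (1.23), Psrc1 (1.67), Surf1 (1.32), Nkg7 (1.82), Gm4419 (-0.998) and Nfkbia (-0.89). Without low lysine replicate 3 with antigen the count was 164, and without low leucine replicate 3 or low lysine replicate 2 with antigen it was 1.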

How the results depend on the processing

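None of the 416 called genes that were fitted changed sign under the alternatives run. For 347 of the 352 higher and 61 of the 64 lower genes the groups did not overlap. For these, leaving out 1 array could not change the sign. The counts of called genes did change. Leaving out 1 array gave 84 to 1414 genes in all (68 to 1094 higher in low leucine, 16 to 320 lower), 0 to 14 without antigen and 1 to 164 for the interaction. The 6 arrays alone gave 50 genes (41 higher, 9 lower). Quantile normalization gave 190 (123 higher), 5 without antigen and 36 for the interaction. Centring each array gave 35 lower genes, an adjusted p below 0.1 gave 909 (710 higher, 199 lower), and genes with a mean level of at least 5 gave 26 for the interaction. A fit of the 17 low amino acid arrays without a block, added after seeing the data, gave 384.

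Whether the title numbers pair the arrays was not settled. Same-numbered low leucine and low lysine arrays deviated together with correlations of 0.12, -0.04 and 0.15 over 5000 genes. Pairs with unlike numbers had -0.21 to 0.11. Runs of the submitters' own numbers join low leucine replicates 1, 2 and 3 to low lysine replicates 2, 3 and 1. Those pairs had correlations of 0.10, 0.11 and -0.07. With the title number as a replicate block the counts were 77 (61 higher, 16 lower) over 6 arrays and 638 (539 higher, 99 lower) over 23. With runs of the submitters' own numbers as the block, 0 genes passed over 6 arrays in limma (0 higher, 0 lower; 3166 at an unadjusted p below 0.05), 465 over 17 arrays, and 7 without antigen. The cause of these changes was not tested.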
